A study of Caenorhabditis elegans with 4 samples.

Results

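The proteins of the cytosolic ribosome of the nematode Caenorhabditis elegans were followed at the level of their RNA in 2 strains. Genes were taken whose WormBase name starts with rpl- or rps-, together with rla-0, rla-1 and rla-2. This gave 81 of the 20535 genes measured, of which 50 belong to the large subunit by name (47 rpl and 3 rla genes) and 31 to the small subunit (rps). The choice rests on names and not on measured values. The control strain, VL749, carries wwIs24, an integrated array labelled [acdh-1p::GFP + unc-119(ed3)], in which the promoter of the acyl-CoA dehydrogenase gene acdh-1 drives green fluorescent protein. The strain VL1080 has this array too, and in addition the mccc-1 allele ww4 on chromosome IV. Both strains grew on nematode growth medium with Comamonas aquatica DA1877 as food after first-stage larvae had been arrested for 20 h, and at least 200 whole animals per library were collected 70 h after hatching at 20 °C, at the young adult stage. Each strain had 2 libraries of total RNA, named as biological replicates, and the labels do not say how the cultures were kept apart, so a p-value here reflects variation among these 4 libraries only, and that variation may be technical. The RNA of mccc-1 itself stood at 104 and 105 FPKM (control) against 100.4 and 100.3 FPKM (mutant), a log2 difference of -0.06 with an SE of 0.11 (adjusted p 0.821 by limma). The lesion of ww4 is not described in the labels, so this level does not check the genotype.

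A ribosome joins a small subunit, which reads the messenger RNA, to a large subunit, which forms the peptide bond. Each holds ribosomal RNA and many different proteins, and since most proteins are present once per ribosome, cells make them in closely matched amounts. In animals the RNAs of these proteins are among the most abundant of the cell, and their translation is under control of the TOR kinase, which responds to amino acids such as leucine. The product of mccc-1 is part of methylcrotonyl-CoA carboxylase, an enzyme of leucine breakdown, and the comparison asks how the mutation affects gene expression.

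The files give FPKM, fragments mapped to a gene per kilobase of its transcript and of library depth. Levels of different genes can therefore be compared per length. The FPKM values of a library summed to between 741399 and 786436. No read totals were at hand. The spacing of low values gave an approximate worth of 1 fragment, for a transcript of 1 kilobase, of 0.0851 and 0.0854 FPKM (control) and 0.088 and 0.086 FPKM (mutant). At this worth the typical ribosomal protein gene rests on roughly 8389 to 11073 fragments per library (median over the 81 genes), so counting error is small for all of them except rpl-42. In whole animals fewer cells of a type and less RNA per cell cannot be told apart.

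Ribosomal protein genes made up a large share of the summed FPKM in both strains. FPKM is per length of transcript, so this is not a share of RNA mass or of fragments. The median transcript of the 81 genes was 507 nt, against 1319 nt for the tested protein-coding genes. The 81 genes took 19.8% and 17.8% of the summed FPKM in the control libraries and 16.6% and 18.9% in the mutant libraries. The order of the libraries did not follow the strains: control replicate 1 was highest and mutant replicate 1 lowest, and the other two lay between them, with mutant replicate 2 above control replicate 2. The means were 18.8% ± 1.4 in the control and 17.8% ± 1.61 in the mutant (SD, n = 2 each), a difference of -1.08 percentage points that is smaller than either spread (exact permutation test over the 4 libraries, two-sided, p = 0.667; the smallest p that 2 against 2 allows is 0.333). The difference depended on single libraries: it was -0.089 points without control replicate 1, -2.07 without control replicate 2, 0.058 without mutant replicate 1 and -2.22 without mutant replicate 2. The large subunit took 11.8% and 10.4% (control) against 9.86% and 11.19% (mutant). The small subunit took 8.01% and 7.4% (control) against 6.76% and 7.71% (mutant). Both subunits ranked the libraries alike, and the ratio of the small to the large subunit sum stayed between 0.677 and 0.709, with means of 0.693 ± 0.0227 and 0.687 ± 0.00285 (SD, n = 2 each; exact permutation test, two-sided, p = 1).

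**Figure D1:**
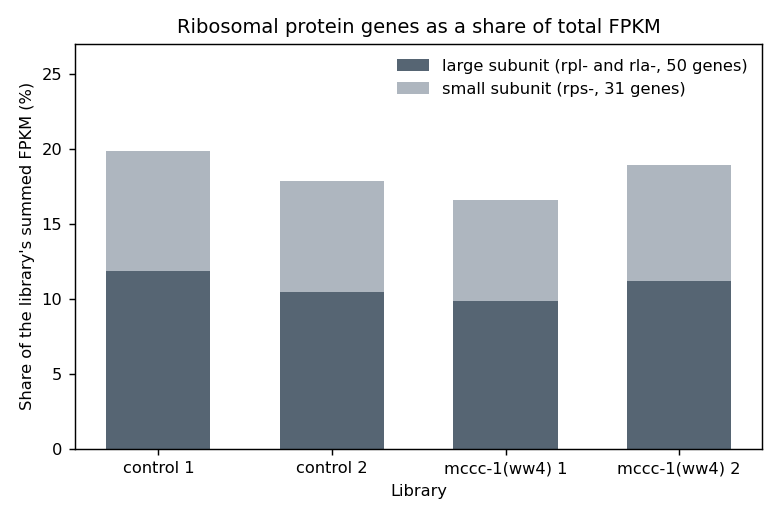
Share of each library's summed FPKM (%) taken by the 50 large-subunit genes (dark) and the 31 small-subunit genes (light), one bar per library. The whole bars reach 19.8% and 17.8% (control) against 16.6% and 18.9% (mutant), so the strains overlap.

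Marker lists of other cell types that moved between the strains are given beside this share. Of 33 tested sperm genes, 31 were lower in the mutant by limma, the test across all genes. It called 1095 of all 13091 tested genes, 139 of them higher. The summed level of 35 sperm genes was 11199 and 10747 FPKM in the 2 controls and 2864 and 4377 FPKM in the 2 mutants. The summed level of 10 oocyte genes was 3113 and 2714 FPKM in the 2 controls and 3683 and 3816 FPKM in the 2 mutants, with 2 genes called higher. Neither list ranked the libraries as the ribosomal proteins did, and the part of these cell types in the share was not tested. The 10 germline genes held no call, and their sum was higher in both mutants, at 1367 and 1372 FPKM (control) against 1459 and 1429 FPKM (mutant). The 8 intestinal genes held no call either, and their sums of 10393 to 11555 FPKM overlapped between the strains. No gene was called among the 6 of body muscle, 8 of neurons, 2 of hypodermis (of 5 fixed) and 3 of the pharynx that were tested. With major sperm protein and vitellogenin genes left out of the total, the share was 20.7% and 18.6% (control) against 17.1% and 19.5% (mutant), and the same order of libraries remained.

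The genes of the family stood close together in level. The median gene lay at 1842 and 1591 FPKM (control) against 1455 and 1766 FPKM in the 2 mutants, and the 90th percentile was 2.68 to 3.87 times the 10th. At least 1000 FPKM was reached by 72 and 68 of the 81 genes (control) against 61 and 73 (mutant), while the whole genome had 127 to 148 such genes per library. Among the 100 genes of the highest level, 49 to 57 were ribosomal protein genes. The median small-subunit gene was at 1979.6 and 1809 FPKM (control) against 1470.1 and 1844 FPKM in the 2 mutants, and the median large-subunit gene at 1831, 1498, 1443 and 1759 FPKM in the same order. The ranking of the genes was nearly the same in every library, with Spearman's rho of 0.963 to 0.985 over the 81 genes for the 6 pairs of libraries. This is a description across genes, which share their library and are not independent.

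**Figure D2:**
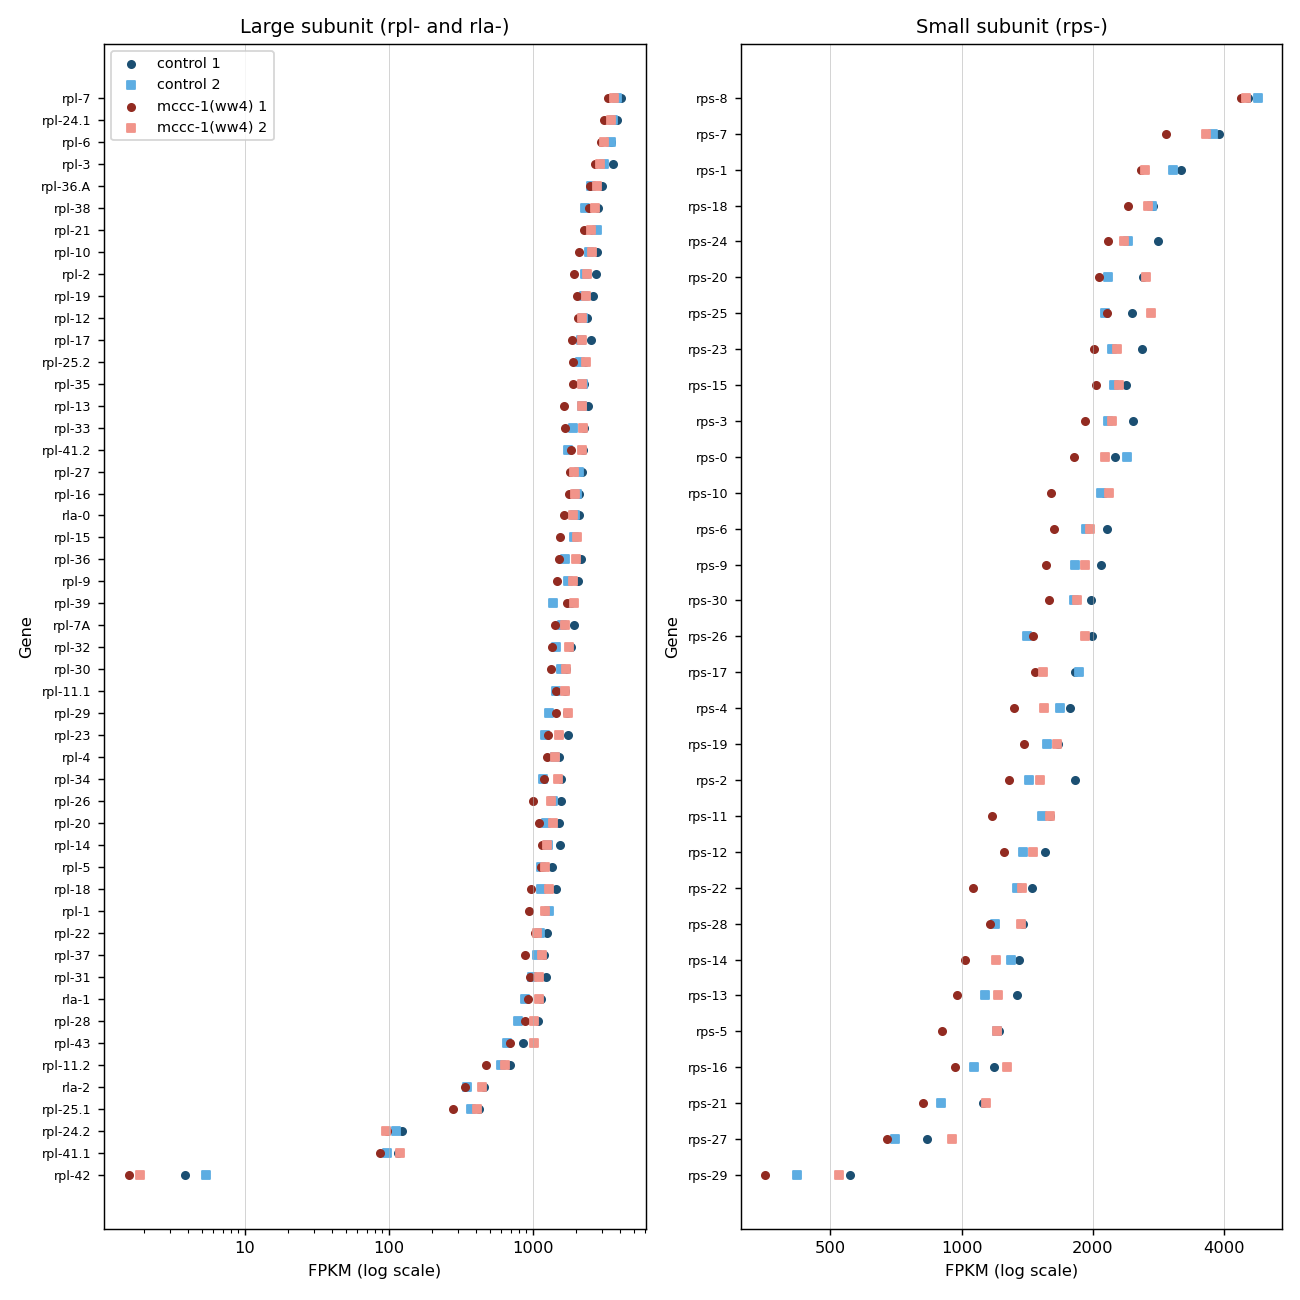
FPKM of each of the 81 genes on a log axis, with 1 point per library; the left panel shows the large and the right panel the small subunit, on different scales, ordered by mean level. Between 61 and 73 genes per library reach 1000 FPKM, the 4 points of a gene lie close together, and rpl-42 stands alone at the bottom with 1.56 to 5.41 FPKM.

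rps-8 (WBGene00004477), a small-subunit protein gene, had the highest level of the family and ranked 3rd to 6th among all genes. It stood at 4542 and 4776 FPKM (control) against 4371 and 4479 FPKM (mutant) (log2 difference -0.07 with an SE of 0.21, adjusted p 0.889 by limma). The next was rpl-7, a large-subunit protein gene, at 4097 and 3821 FPKM (control) against 3318 and 3672 FPKM (mutant). rps-7, of the small subunit, followed at 3901 and 3774 FPKM (control) against 2939.8 and 3638 FPKM (mutant). In each of these 3 genes both mutant libraries lay below both control libraries, by an amount that the test did not call. The others of the 10 highest were rpl-24.1, rpl-6, rpl-3, rps-1, rpl-36.A, rps-18 and rpl-38, with means over the control libraries from 2563 to 3721 FPKM. Their log2 fold changes were -0.18, -0.20, -0.25, -0.26, -0.07, -0.11 and 0.01. The strains did not overlap for the first 4 and for rps-18, and they overlapped for rpl-36.A and rpl-38.

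No ribosomal protein gene passed the test for a difference between the strains. All 81 passed the filter of at least 1 FPKM in at least 2 libraries. The test was limma on log2(FPKM + 1), mutant minus control, adjusted over all 13091 tested genes by Benjamini-Hochberg with a threshold of 0.05. It called 0 of the 81 genes, where it called 8.36% of all tested genes. Without adjustment 1 of them, rpl-42, had a p under 0.05, against 21.6% of all tested genes. The share of all genes depended on the filter: with none beyond a value above 0, 4 of 18934 were called. Precision also differed between genes, with an SE of 0.21 for rps-8 and 0.20 for rpl-39, against 0.11 for mccc-1 at about 100 FPKM. These shares therefore do not compare genes at like precision. Apart from rpl-42, the smallest adjusted p was 0.237. The 95% interval of the log2 fold change lay within a 2-fold change either way for 80 of the 81 genes, and the remaining gene was rpl-42. For rps-8 this interval ran from -0.59 to 0.44, so differences of that size could not be told from none with 2 libraries per strain.

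The log2 fold changes were small and mostly below 0. They lay between -0.35 and 0.19 for 80 genes, with a median over all 81 of -0.16, where all tested genes had a median of 0.05. Values below 0 were found for 71 of the 81 genes, against 44.4% of all tested genes. The medians were -0.15 for the large and -0.17 for the small subunit. Both mutant libraries lay below both control libraries for 27 genes, or 33.3%, against 23.2% of all tested genes. Both lay above for none, against 28.9%. The genes varied together from library to library, so these are not independent counts. The count below 0 varied with the scaling. It was 66 with each library scaled to 1 sum (median -0.11), and 66 with the total without major sperm protein and vitellogenin genes (median -0.12). Median-of-ratios and upper-quartile scaling each gave 76, with medians of -0.19 and -0.21. Quantile normalization, which gives all libraries the same set of values, left 47 genes below 0 with a median of -0.02. All tested genes then had a median of 0.09.

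**Figure D3:**
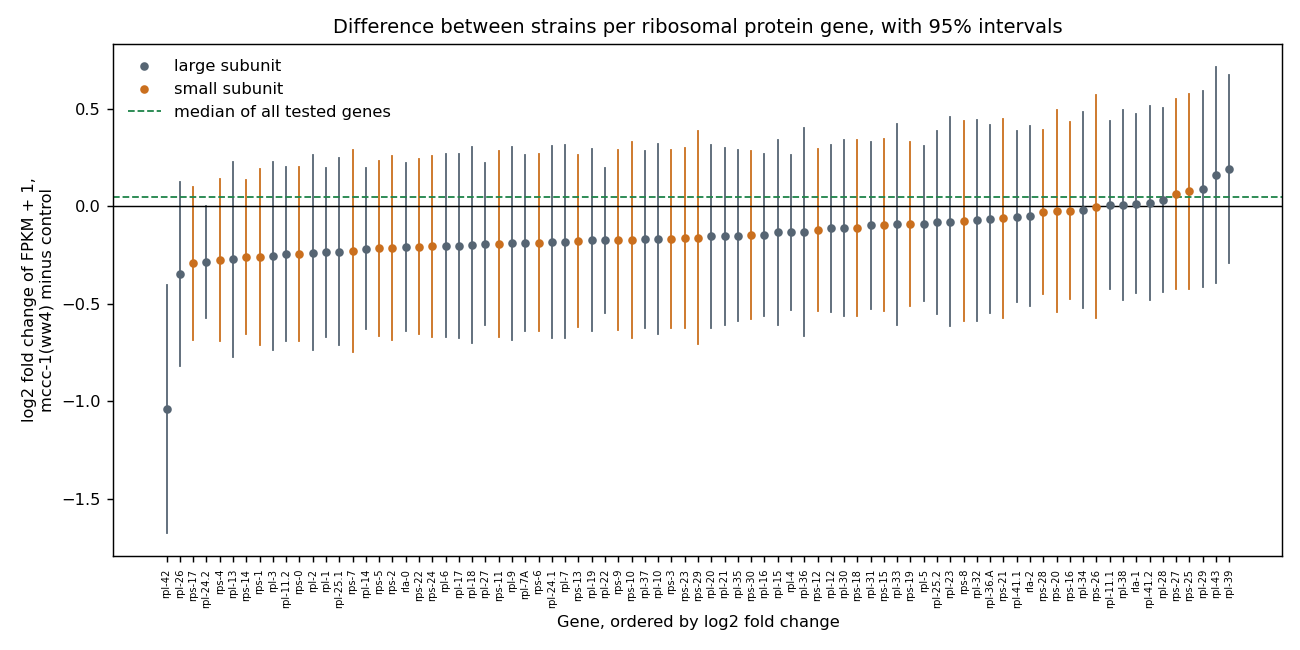
log2 fold change of FPKM + 1 (mutant minus control) for each of the 81 genes in rising order, with the 95% interval of the limma fit as a line; grey is the large and orange the small subunit. Points run from -1.04 (rpl-42) to 0.19 (rpl-39), and every interval but that of rpl-42 includes 0.

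By the median gene, the 2 libraries of a strain differed from each other by more than the means of the strains did. These measures are unlike, since a mean of 2 libraries varies less than a single library. Control replicate 1 was above control replicate 2 for 74 of the 81 genes, with a median log2 difference of 0.19, against 39.7% of all tested genes and a median of -0.07. Mutant replicate 2 was above mutant replicate 1 for 80 genes, with a median of 0.25, against 41.8% and a median of -0.06. Mutant replicate 1 held the lowest of the 4 values for 68 genes, against 22.7% of all tested genes. Control replicate 1 held the highest for 60, against 12.2%. The direction between the strains thus depended on which libraries were set against each other. All 81 genes were lower in mutant replicate 1 than in control replicate 1 (median log2 difference -0.36), but 54 were higher in mutant replicate 2 than in control replicate 2 (median 0.07). The median was -0.18 for mutant replicate 1 against control replicate 2, and -0.10 for mutant replicate 2 against control replicate 1. Between single libraries the strains thus differed by less or by more than the replicates did, depending on the pair. Without mutant replicate 1 the median log2 fold change was -0.02, with 46 genes below 0, and without control replicate 1 it was -0.07, with 55 below 0. Without control replicate 2 it was -0.23, with 81 genes below 0, and without mutant replicate 2 it was -0.27, with 80 below 0.

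The difference between replicates varied with the length of the coding sequence. The 27 shortest genes (66 to 390 nt of coding sequence in the WBcel235 annotation, matched by gene ID) had a median log2 difference of 0.29 between control replicates 1 and 2 and of 0.34 between mutant replicates 2 and 1. In the 27 longest (567 to 1203 nt) the same medians were 0.13 and 0.23, and in the 27 between them 0.14 and 0.24. The log2 fold change between the strains also fell with length, with medians of -0.05, -0.17 and -0.19 from the shortest to the longest. In size the replicate differences were thus largest in the shortest genes and the strain difference smallest there. Of the genes whose strains did not overlap, 3 were among the shortest, 11 in the middle and 13 among the longest. Across the 81 genes Spearman's rho of coding length was -0.48 with the difference of the controls, -0.28 with that of the mutants and -0.6 with the log2 fold change. All points share the 4 libraries, so these values are a description. Other tested protein-coding genes at 500 FPKM or more had median log2 fold changes of -0.06 (22 genes), -0.14 (34) and -0.07 (70) over the same 3 ranges of length, with no such order. Both mutants lay below both controls for 7, 8 and 13 of these genes. Their replicates differed by medians of 0.12, -0.05 and 0.09 (control 1 over 2) and 0.14, 0.22 and 0.19 (mutant 2 over 1), again without that order. The part of length in the results was not tested.

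**Figure D4:**
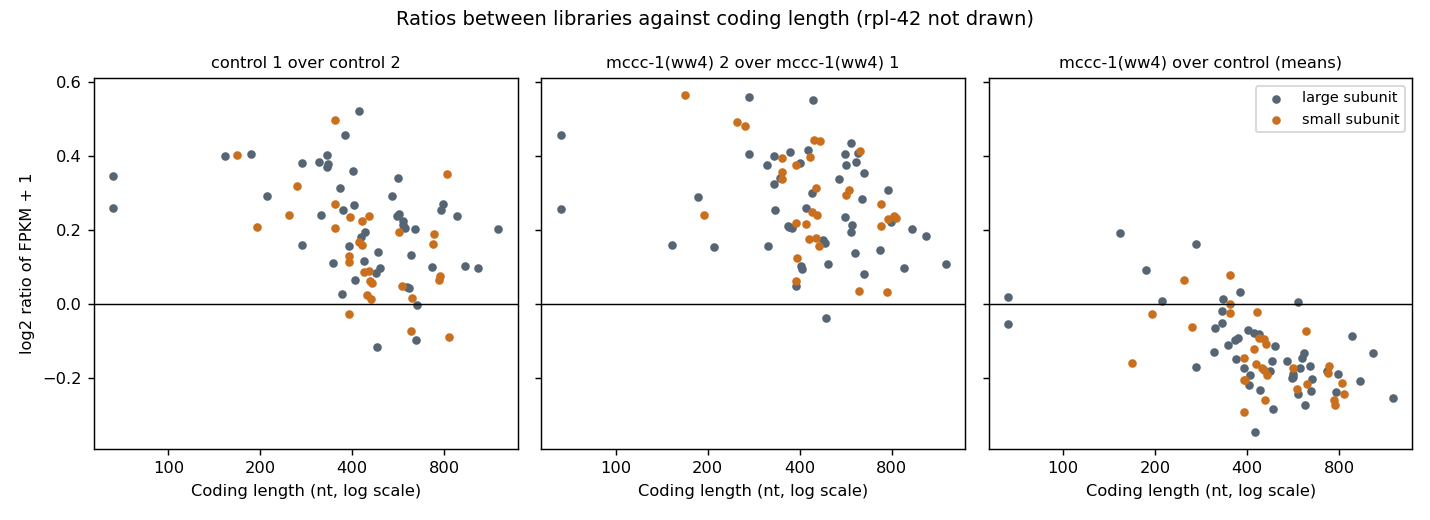
log2 ratio of FPKM + 1 against coding length (nt, log axis) for 80 genes, each point 1 gene; the panels show control replicate 1 over 2, mutant replicate 2 over 1, and mutant over control. Most points of the first panel and all but 1 of the second lie above 0 (74 and 80 of all 81 genes). In the last panel 26 of the 27 longest genes lie below 0, against 45 of 70 other genes at 500 FPKM or more in that range of length (not drawn).

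Apart from rpl-42, the genes at both ends of the order of fold changes had intervals that included 0. The 5 largest log2 fold changes were those of rpl-39, rpl-43, rpl-29, rps-25 and rps-27, with values of 0.19, 0.16, 0.09, 0.08 and 0.06. All 5 have short coding sequences, from 153 to 351 nt. rpl-39, a very short protein at the tunnel through which the new chain leaves the ribosome, stood at 1819.8 and 1379 FPKM (control) against 1712 and 1910.0 FPKM (mutant) (log2 difference 0.19 with an SE of 0.20, adjusted p 0.66 by limma). Its lowest value was that of control replicate 2, and the other control library lay between the mutants. At the low end, after rpl-42, came rpl-26, rps-17, rpl-24.2 and rps-4. rpl-26, a protein at the exit of the tunnel, was at 1558 and 1374 FPKM (control) against 996 and 1329 FPKM (mutant) (log2 difference -0.35 with an SE of 0.20, adjusted p 0.383 by limma), and the controls lay above both mutants. rps-17, of the small subunit, had 1823 and 1859 FPKM (control) against 1470.1 and 1535 FPKM (mutant), 1841 ± 25.9 against 1503 ± 46.2 FPKM (SD, n = 2 each; log2 difference -0.29 with an SE of 0.16, adjusted p 0.374 by limma). Its strains were apart by more than the spread within each, and the test did not call it. rps-4, also of the small subunit, was at 1771 and 1681 FPKM (control) against 1318 and 1544 FPKM (mutant) (log2 difference -0.27 with an SE of 0.17, adjusted p 0.435 by limma).

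Grouped by place in the ribosome, as known from the structures of yeast and mammalian ribosomes, the genes gave the same picture. Around the peptidyl transferase centre, where the peptide bond forms, lie rpl-2, rpl-3, rpl-4 and rpl-10. Their summed level was 10636 and 9262 FPKM in the 2 controls and 7969.5 and 9258 FPKM in the 2 mutants. The 2 controls exceeded the mutants, with control replicate 2 and mutant replicate 2 nearly equal (exact permutation test, two-sided, p = 0.333, the smallest possible). Among these rpl-3, which reaches into the catalytic centre, had 3594 and 3123 FPKM (control) against 2708 and 2917 FPKM (mutant) (log2 difference -0.25 with an SE of 0.20, adjusted p 0.542 by limma). rpl-10, which joins the large subunit late, had 2790.0 and 2427 FPKM (control) against 2098 and 2553 FPKM (mutant) (log2 difference -0.17 with an SE of 0.20, adjusted p 0.707 by limma), and its strains overlapped. The 8 genes of the exit site of the new chain (rpl-17, rpl-19, rpl-25.1, rpl-25.2, rpl-26, rpl-31, rpl-35 and rpl-39) summed to 14732 and 12867 FPKM in the 2 controls and 11573 and 13761 FPKM in the 2 mutants, with log2 fold changes from -0.35 to 0.19. Their strains overlapped.

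The small-subunit genes along the path of the messenger RNA (rps-2, rps-3, rps-14, rps-23, rps-26 and rps-30) summed to 12199 and 10327 FPKM in the 2 controls and 9271 and 10959.5 FPKM in the 2 mutants. rps-23, a protein of the decoding centre, was at 2589 and 2217 FPKM (control) against 2015 and 2273 FPKM (mutant) (log2 difference -0.16 with an SE of 0.19, adjusted p 0.701 by limma). rps-14, which lies where the message leaves, was at 1352 and 1296 FPKM (control) against 1017 and 1201 FPKM (mutant) (log2 difference -0.26 with an SE of 0.17, adjusted p 0.438 by limma). The controls lay above the mutants for rps-14, while for rps-23 mutant replicate 2 lay between the controls. rps-6, the target of S6 kinase, was at 2153 and 1925 FPKM (control) against 1630.0 and 1965 FPKM (mutant) (log2 difference -0.19 with an SE of 0.19, adjusted p 0.645 by limma), and its strains overlapped. rps-26 showed the widest gap between the controls of this group, at 1987 and 1409 FPKM, with 1459 and 1916 FPKM in the mutants. rps-30, made as a fusion with a ubiquitin-like protein, was at 1979.6 and 1809 FPKM (control) against 1585 and 1844 FPKM (mutant), with mutant replicate 2 again between the controls.

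The stalk of the large subunit, which recruits the elongation factors, is built from rla-0, the base, and from the small acidic proteins rla-1 and rla-2, and rpl-12 lies beneath it. rla-0 (WBGene00004408; chromosome I, 10567894 to 10569017, forward strand in the WBcel235 annotation) was at 2099 and 1957 FPKM (control) against 1635 and 1881 FPKM (mutant) (log2 difference -0.21 with an SE of 0.18, adjusted p 0.576 by limma). Both mutants were below both controls. rla-1 was at 1143 and 879 FPKM (control) against 927 and 1105 FPKM (mutant) (log2 difference 0.01 with an SE of 0.19, adjusted p 0.978 by limma), and its strains overlapped. rla-2, the lowest of them, was at 453 and 351 FPKM (control) against 334 and 442 FPKM (mutant) (log2 difference -0.05 with an SE of 0.19, adjusted p 0.913 by limma), also with overlap. Per length the RNA of rla-1 and rla-2 together came to 0.761 and 0.629 of that of rla-0 (control) against 0.772 and 0.822 (mutant). The mutants were thus higher in this ratio (control 0.695 ± 0.0934 and mutant 0.797 ± 0.0359, SD, n = 2 each; exact permutation test, two-sided, p = 0.333, the smallest possible), and their means differed by less than the gap between the controls. rla-0 has a coding sequence of 936 nt and the others of 333 and 330 nt, so the ratio also runs along the length difference described above. The 4 genes summed to 6057 and 5395 FPKM in the 2 controls and 4931 and 5619 FPKM in the 2 mutants.

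rpl-5 and the rpl-11 genes encode the proteins that bind the 5S ribosomal RNA. rpl-5 was at 1348 and 1143 FPKM (control) against 1129.9 and 1207 FPKM (mutant) (log2 difference -0.09 with an SE of 0.17, adjusted p 0.822 by limma), and mutant replicate 2 lay between the controls. There are 2 genes of the name rpl-11, with coding sequences of the same length (588 nt). rpl-11.1 (WBGene00004422; chromosome V, 3585312 to 3586064, reverse strand) was the higher, at 1674 and 1433 FPKM (control) against 1454 and 1663 FPKM (mutant) (log2 difference 0.01 with an SE of 0.18, adjusted p 0.99 by limma). rpl-11.2 (WBGene00004423; chromosome X, 2241738 to 2242618, reverse strand) was at 697 and 601 FPKM (control) against 469.7 and 636 FPKM (mutant) (log2 difference -0.24 with an SE of 0.19, adjusted p 0.526 by limma). Of their joint FPKM rpl-11.1 took 70.6% and 70.4% (control) against 75.6% and 72.4% (mutant). The mutants were higher here without overlap, and the means of 70.5% ± 0.11 and 74% ± 2.29 (SD, n = 2 each) differed by more than the spread between replicates (exact permutation test, two-sided, p = 0.333, the smallest possible for 2 against 2). Near-identical copies can share reads, and the split between them was made in the authors' quantification, so both levels are uncertain.

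Other names also come in more than 1 copy, and in each a single gene gave most of the RNA. rpl-25.2 was at 2309 and 2132 FPKM (control) against 1888 and 2325 FPKM (mutant). rpl-25.1 was 5.86-fold lower (ratio of means over all libraries), at 423 and 369.6 FPKM (control) against 278 and 407 FPKM (mutant). Both encode a protein at the exit tunnel, and rpl-25.2 took 84.5% and 85.2% of the joint FPKM in the 2 controls and 87.2% and 85.1% in the mutant libraries. The shares overlapped between the strains. rpl-41.2 and rpl-41.1, genes of the shortest coding sequence of the family at 66 nt, lie on the same strand of chromosome I (4789190 to 4789592 for rpl-41.1 and 4790292 to 4790642 for rpl-41.2). rpl-41.2 was at 2237 and 1761 FPKM (control) against 1840.0 and 2199 FPKM (mutant). rpl-41.1 was 19.3-fold lower, at 115 and 96.1 FPKM (control) against 86.3 and 119 FPKM (mutant), and rests on about 325 to 458 fragments per library. Neither separated the strains. FPKM of such short transcripts depend strongly on the length that the quantification assigns to them.

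rpl-24.1 and rpl-24.2 share a name but not a role: the first is a protein of the mature large subunit at its face towards the small subunit, and the second is the counterpart of a human factor that holds the place of rpl-24 while the large subunit is assembled. rpl-24.1 was at 3829 and 3612 FPKM (control) against 3088 and 3480.4 FPKM (mutant) (log2 difference -0.18 with an SE of 0.21, adjusted p 0.685 by limma). rpl-24.2 (WBGene00004437; chromosome I, 9669415 to 9670098, forward strand), 32.9-fold lower, was at 123 and 111 FPKM (control) against 97.2 and 94.6 FPKM (mutant). Its strains were apart, at 117 ± 8.02 and 95.9 ± 1.82 FPKM (SD, n = 2 each; log2 difference -0.28 with an SE of 0.12, adjusted p 0.237 by limma; 95% interval -0.57 to 0.00355), and it was not called. Of the 81 genes it was the only one in which mutant replicate 2 lay below mutant replicate 1.

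**Figure D5:**
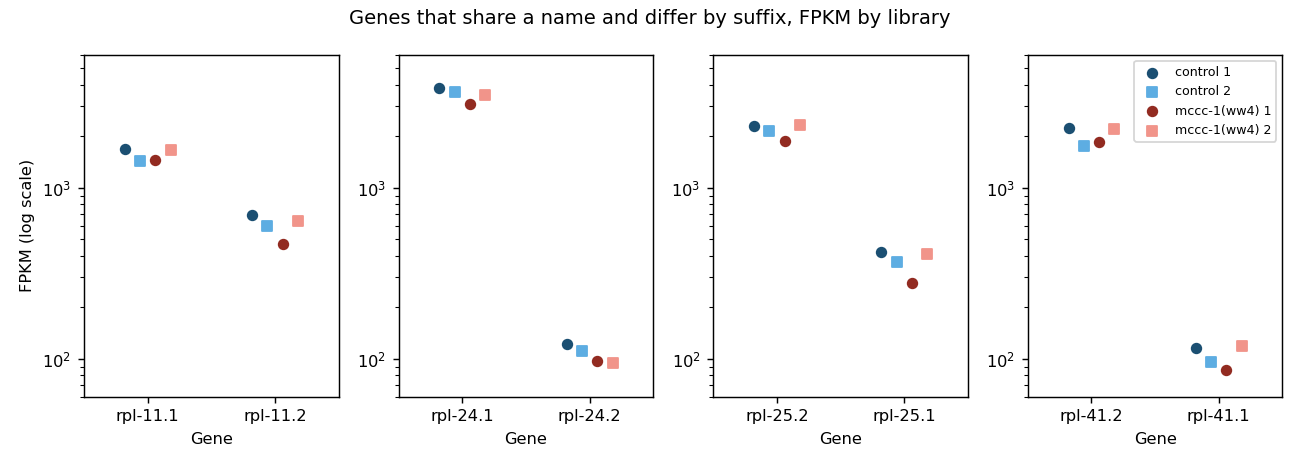
FPKM on a log axis for 4 pairs of genes that differ by the suffix of their name, with 1 point per library. One gene of each pair lies far above the other in all 4 libraries, by 2.59-fold for rpl-11.1 and rpl-11.2 and by 32.9-fold for rpl-24.1 and rpl-24.2.

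rpl-42 (WBGene00004455; chromosome II, 11092713 to 11094022, forward strand, 5 exons, coding sequence of 426 nt) stood far below every other gene of the family. It was at 3.85 and 5.41 FPKM (control) against 1.56 and 1.88 FPKM (mutant). Both mutants lay below both controls, at 1.72 ± 0.226 against 4.63 ± 1.10 FPKM (SD, n = 2 each; log2 difference -1.04 with an SE of 0.27, adjusted p 0.0653 by limma; 95% interval -1.67 to -0.40). These values rest on roughly 33 and 46 fragments (control) against 13 and 16 (mutant), so counting error is not small here. The call depended on the setting: with the replicate number as a block the limma adjusted p was 0.0162, and without control replicate 1 it was 0.049, while the other alternatives gave 0.0524 to 0.317. The gene lies 2519 nt from rpl-36.A on the opposite strand. rpl-36.A was 852-fold higher (ratio of means over all libraries), at 2998 and 2538 FPKM (control) against 2497 and 2783 FPKM (mutant). rpl-36, which has a similar name, had 2168 and 1662 FPKM (control) against 1521 and 1974 FPKM (mutant) (log2 difference -0.13 with an SE of 0.22, adjusted p 0.796 by limma), with overlap of the strains.

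Besides their level, the genes shared a compact structure in the annotation. The median gene had 3 exons and a coding sequence of 441 nt, against 6 exons and 1074 nt for the 12619 tested protein-coding genes. The annotated untranslated regions had medians of 8 nt at the 5′ end and 54 nt at the 3′ end, against 17 and 128 nt. Chromosome I held 25 of the 81 genes, or 30.9%, against 17.2% of the tested protein-coding genes, and chromosome X held 2, or 2.47%, against 13.4%. Both genes on X are copies with a partner on another chromosome, rpl-11.2 and rpl-25.1, and each is the lower of its pair. Annotated small nucleolar RNA genes, which guide the modification of ribosomal RNA, lay within 13 of the 81 genes on the same strand, or 16%, against 1.18% of the tested protein-coding genes. These hosts were rpl-2, rpl-4, rpl-6, rpl-7, rpl-7A, rpl-15, rpl-24.1, rpl-26, rps-4, rps-12, rps-13, rps-23 and rps-29. Their median log2 fold change of -0.18 was close to the -0.15 of the other 68.

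Ribosomal proteins outside the naming rule stood at similar levels. ubl-1 and ubq-2 encode fusions of ubiquitin-type proteins with a ribosomal protein, and rack-1 a scaffold bound to the small subunit. ubl-1 was at 1821 and 1790.0 FPKM (control) against 1238 and 1433 FPKM (mutant) (log2 difference -0.44 with an SE of 0.17, adjusted p 0.199 by limma). ubq-2 was at 1529 and 1233 FPKM (control) against 1197 and 1472 FPKM (mutant) and rack-1 at 1106 and 1120.2 FPKM (control) against 891 and 1115 FPKM (mutant). The controls lay above the mutants for ubl-1, and the strains overlapped for ubq-2 and rack-1. With ubl-1 and ubq-2 counted, the family's share was 20.3% and 18.2% (control) against 16.9% and 19.3% (mutant).

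None of the genes that surround the ribosome in its life cycle was called either, where 8.36% of all tested genes were called and 21.6% had an unadjusted p under 0.05. For translation elongation 0 of 9 genes passed (1 with an unadjusted p under 0.05), with a median log2 fold change of -0.11. eef-1A.1, the main carrier of aminoacyl-tRNA and the highest of them, was at 4709 and 4059.8 FPKM (control) against 4208 and 4674 FPKM (mutant) (log2 difference 0.02 with an SE of 0.22, adjusted p 0.97 by limma), and its replicates differed in the same direction as those of the ribosomal proteins. For initiation 0 of 26 genes passed (1 unadjusted; median -0.01), and the highest was the poly(A) binding protein gene pab-1, at 1092 and 1012 FPKM (control) against 993 and 999.9 FPKM (mutant). TOR and growth control genes gave 0 of 11 (1 unadjusted; median 0.09). rsks-1, the S6 kinase, was at 51.8 and 46.6 FPKM (control) against 62.2 and 62.6 FPKM (mutant) (log2 difference 0.34 with an SE of 0.13, adjusted p 0.184 by limma), and larp-1, counterpart of a mammalian regulator of ribosomal protein messages and the highest of this list, at 146 and 159 FPKM (control) against 150.0 and 132 FPKM (mutant).

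The summed level of a list of genes of ribosome assembly and the nucleolus was lower in both mutants, although no single gene was called. Of 20 tested genes 0 passed and 6 had an unadjusted p under 0.05, against 8.36% and 21.6% of all tested genes. Of the 20 log2 fold changes 17 were below 0, against 44.4% of all tested genes, and their median was -0.23, against 0.05. Their summed level was 2623 and 2596 FPKM in the 2 controls and 2229 and 2199.7 FPKM in the 2 mutants. The means of this sum, 2609.6 ± 19.6 and 2214 ± 20.8 FPKM (SD, n = 2 each), lay far apart against its spread within each strain (exact permutation test, two-sided, p = 0.333, the smallest possible). By the median gene the replicates did not differ as they did for the ribosomal proteins, with log2 differences of -0.06 (control 1 over 2) and -0.06 (mutant 2 over 1). nucl-1, nucleolin and the highest of the list, was at 583 and 607 FPKM (control) against 525 and 471 FPKM (mutant) (log2 difference -0.26 with an SE of 0.14, adjusted p 0.346 by limma). nol-56, a core protein of the particles that methylate ribosomal RNA, was at 286 and 294 FPKM (control) against 208 and 235.01 FPKM (mutant) (log2 difference -0.39 with an SE of 0.13, adjusted p 0.129 by limma). fib-1, the methyltransferase of these particles, was at 486 and 399 FPKM (control) against 361 and 399 FPKM (mutant) (log2 difference -0.21 with an SE of 0.15, adjusted p 0.489 by limma), with overlap. Its replicates differed in the same direction as those of the ribosomal proteins, and those of nucl-1 in the opposite direction. The control SD of fib-1 alone was 61.7 FPKM, so shifts of single genes partly cancelled in the sum. Of 6 subunits of RNA polymerase I, which copies the ribosomal RNA genes, 0 passed and 1 had an unadjusted p under 0.05. This was rpoa-2, the second largest subunit, at 27.8 and 33.6 FPKM (control) against 22.2 and 18.5 FPKM (mutant) (log2 difference -0.57 with an SE of 0.17, adjusted p 0.11 by limma). The highest of them, rpac-19, was at 64.0 and 65.3 FPKM (control) against 69.5 and 70.2 FPKM (mutant).

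The ribosome of mitochondria has its own proteins, named mrpl and mrps. Of 69 such genes 0 passed the test, against 8.36% of all tested genes, and 3 had an unadjusted p under 0.05, against 21.6%. Their median log2 fold change was 0.11, where that of the cytosolic proteins was -0.16 and that of all tested genes 0.05, and 12 of 69 were below 0, against 44.4%. The summed level was 3133 and 3325 FPKM in the 2 controls and 3428 and 3489 FPKM in the 2 mutants, so that both mutants lay above both controls (3229 ± 136 against 3459 ± 43, SD, n = 2 each; exact permutation test, two-sided, p = 0.333, the smallest possible). mrpl-44, the highest of them, went against the list, with both mutants below both controls, at 171 and 173 FPKM (control) against 149 and 159 FPKM (mutant) (log2 difference -0.16 with an SE of 0.12, adjusted p 0.497 by limma). Between the cytosolic and the mitochondrial list the difference itself was not tested.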

How the data were processed

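Total RNA of whole young adults was measured in 4 libraries, 2 per strain. The deposited values are FPKM per gene, 1 file per library, per the file headers. Bowtie2 and RSEM are named in the submitters' processing notes; versions, genome build, annotation and strandedness were not given in the sources used here, so genes that overlap on opposite strands cannot be told apart with certainty. Names came from a table of WormBase gene IDs (18776 of 20535 matched), and gene structures from the WBcel235 annotation (Ensembl), by gene ID.

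The test was limma 3.58.1 (R 4.3.3) on log2(FPKM + 1) (group only, empirical Bayes with trend, 2 residual and 4.65 prior degrees of freedom), fitted on the 13091 genes that reached 1 FPKM in 2 or more libraries. A fold change on this scale understates that of low genes. Sums and shares were compared by an exact permutation test over all 6 regroupings of the 4 libraries, computed in Python 3.11.15 with NumPy 2.4.6. Spearman's rho was computed with SciPy 1.17.1. The fit was tested on simulated data. The worth of 1 fragment was estimated from low values (under 0.6 FPKM) of genes with 1 transcript of 950 to 1050 nt.

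The members, the filter, the groups by role and the gene lists were chosen with earlier results of these data known. Of the lists, iftb-1, nol-1, nol-2 and nol-5 did not match. Named were the 10 genes of the highest mean, the 5 largest and 5 smallest fold changes, the stalk genes, genes of a shared name, and the highest of each related list. Others named in the groups by role were chosen for their role. mccc-1, rps-6, ubq-2, rack-1, rsks-1, fib-1, nol-56 and rpoa-2 fall outside these rules. Of these rsks-1, nol-56 and rpoa-2 had an unadjusted p under 0.05 by limma, so their naming is not independent of the result. Alternatives were other pseudocounts, filters and scalings, a robust variance model, a replicate block and leaving out each library.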

Additional observations from a re-analysis of the deposited data

How the results depend on the processing

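The count of all genes called by limma, 1095, was 4 with no filter beyond a value above 0, 4 with a minimum of 0.1 FPKM, 726 after quantile normalization and 393 to 1324 when 1 library was left out. With the replicate number as a block it was 1803, and the count of ribosomal protein genes called was 1, rpl-42; leaving out 1 library gave 0 to 1, the call being rpl-42 without control replicate 1. In the fits that leave out a library the lone library of a strain is assumed to vary like the other strain. The labels do not say that the numbers mark a batch, and deviations of same-numbered libraries had a Pearson r of 0.18 over all tested genes and -0.31 over the 81, so the numbers were not taken as pairs.

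Of 449 log2 fold changes of 30 ribosomal protein genes under the alternatives, 42 had the other sign, all of them of 0.18 or less in size. These 30 were the genes named for their level, fold change, place in the stalk or shared name. Other members named in the text, such as rps-26, are not among them. Median-of-ratios scaling gave -0.026 for rpl-38, -0.014 for rpl-41.2, -0.027 for rpl-11.1 and -0.020 for rla-1, and upper-quartile scaling gave -0.042, -0.030, -0.044 and -0.036. Quantile normalization gave 0.076 for rps-8, 0.041 for rpl-24.1, 0.018 for rpl-6, 0.083 for rpl-36.A, 0.017 for rps-18, 0.075 for rpl-25.2 and 0.0091 for rla-2. Leaving out 1 library gave -0.14 to 0.15 for rpl-38, -0.15 to 0.19 for rpl-41.2, -0.11 to 0.12 for rpl-11.1, -0.18 to 0.20 for rla-1, -0.19 to 0.055 for rpl-36.A, -0.23 to 0.068 for rpl-25.2, -0.25 to 0.15 for rla-2, -0.32 to 0.060 for rpl-36, -0.28 to 0.17 for rpl-41.1, -0.091 to 0.25 for rps-25, -0.0091 to 0.39 for rpl-39, -0.11 to 0.29 for rpl-29, -0.12 to 0.44 for rpl-43, -0.18 to 0.31 for rps-27 and -0.51 to 0.043 for rpl-25.1. The cause was not tested. The share of the total differed by -1.30 points without major sperm protein and vitellogenin genes, -1.14 with ubl-1 and ubq-2, -0.97 without the 3 highest genes, and -2.22 to 0.058 when 1 library was left out. With 2 libraries per strain the precision of every value is limited, and the fewest fragments stand behind rpl-42.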
